A study of Zea mays with 48 samples.

Results

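The response of the maize inbred B73 to 24 hours of feeding by the two-spotted spider mite Tetranychus urticae was read from 16 of the 48 libraries of the study, chosen by line and treatment from their titles. The other 32 are from the inbreds B96 and B75 and from their F1 crosses with B73. B73 is the inbred whose genome is the maize reference. Groups were 8 libraries of infested B73 leaves and 8 libraries of control B73 leaves. Replicates 1 to 4 of each were grown with the inbred B96 and replicates 5 to 8 with the inbred B75, and these sets of plants are called the B96 and the B75 experiment. All plants were 22 days old, sections of leaf 4 were ringed with a wax barrier in both groups, and infested sections received 200 adult female mites. The labels do not say how many plants gave each library, so p-values measure the spread between these libraries, which may in part be technical.

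Spider mites pierce single leaf cells and empty their contents, so the tissue under study is a leaf with many small wounds. In plants, wounding and herbivory are known to switch on jasmonate signalling and defence genes, and often to lower the transcripts of photosynthesis, which are among the most abundant in a leaf. The counts below were tested across all genes at once, but the deposited table identifies genes by numbers of the form Zm00001d that it does not pair with names. None of the 44146 identifiers of this form matched the reference gene table, so genes are described by their level and the size of their change. A check of the labelled tissue against leaf and cell type markers was likewise not made here. The table names 154 microRNA precursors, of which 153 were matched.

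Infestation was the main axis among the B73 libraries. The first principal component of log2(CPM + 1), where CPM (counts per 1 M counts of the scaled library, M being 1000 times 1000) is the level used throughout, held 62.4% of the variance over 19491 genes and separated all 8 infested from all 8 control libraries. Infested replicate 1 stood apart from the other infested libraries, with a score of 0.899 against 36.8 to 74.8 in the other 7 and -67.0 to -25.9 in the controls. Control replicates 7 and 8 lay apart on the second component (13.4%). Several results that lean on infested replicate 1 are given with and without it. Libraries held 14.2 to 20.7 M gene counts in control and 9.98 to 14.4 M in infested leaves, so depth moved with the treatment. Thinned to the size of the smallest library, the data still gave 9675 changed genes of 19517 tested.

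**Figure D1:**
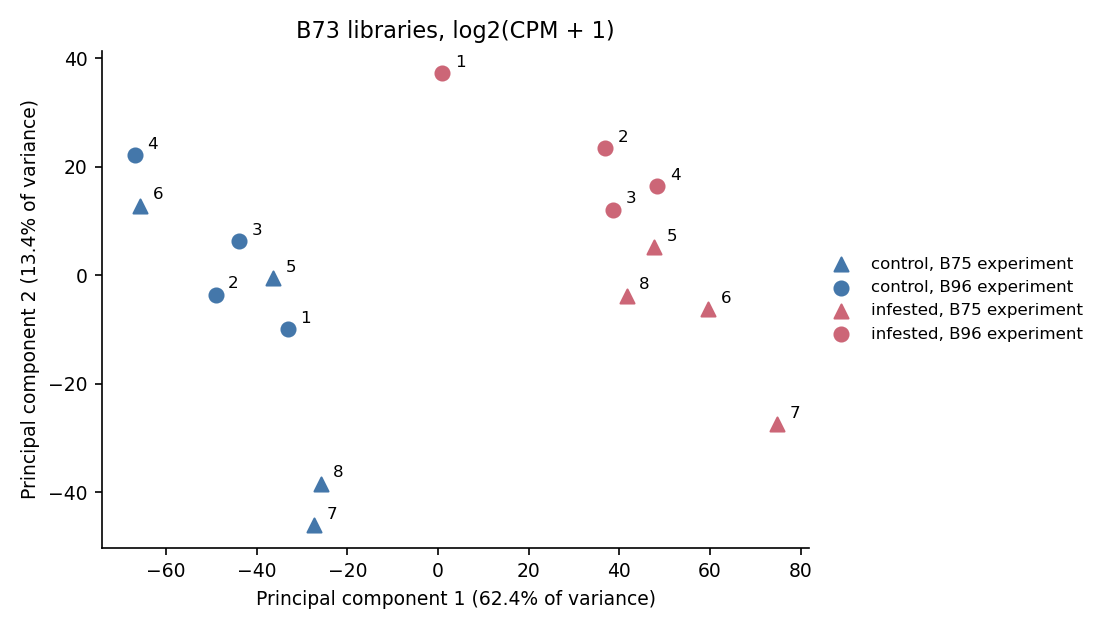
Scores of the 16 B73 libraries on the first and second principal components of log2(CPM + 1), with the share of variance on each axis and replicate numbers beside the points (blue control, red infested, circles B96 experiment, triangles B75 experiment). Infested replicate 1, at 0.899 on the first axis, lies between the control libraries and the other infested libraries.

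Mites changed the level of many genes, mostly by small amounts. Of 20139 genes, 10338 changed (51.3%), of which 5349 rose (26.6%) and 4989 fell (24.8%), by edgeR's quasi-likelihood test with the experiment as covariate and a Benjamini-Hochberg adjusted p under 0.05. The numbers of rises and falls were alike, but their sizes were not. Among genes that rose the median log2 fold change was 0.62, with 3.00 at the 95th percentile. Among genes that fell the median was -0.46, with -1.11 at the 5th percentile. Over all genes tested the median was -0.01, with a median SE of 0.11.

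Rises outnumbered falls among changes of at least 2-fold, and from 4-fold up nearly all changes were rises. At least 2-fold, 1550 genes rose (7.7% of those tested) and 391 fell (1.94%). At least 4-fold, 553 rose and 15 fell. At least 8-fold, 268 rose and 0 fell, and 73 rose at least 32-fold. The difference was also seen among the 12972 genes with at least 10 CPM in the group where they were higher, for which a large fall could be read as well as a large rise: 748 rose and 210 fell at least 2-fold, 293 and 8 at least 4-fold, and 157 and 0 at least 8-fold. The number that fell at least 2-fold depended on single libraries, with 592 without infested replicate 1 and 242 without control replicate 6. A test against a 2-fold change in place of a limit on the fitted value called 823 rises and 24 falls.

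In 1686 genes that rose, all 8 infested libraries lay above all 8 control libraries, and in 921 genes that fell they lay below (8.37% and 4.57% of genes tested). Many genes were close to constant. For 10642 genes (52.8%) the 95% interval of the fold change lay within 1.5-fold in either direction. Of those 10642 genes, 3338 were called, so many calls concerned changes smaller than 1.5-fold.

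The genes that changed held most of the leaf's gene counts. Those that rose took 10.6% to 14.8% of them in control libraries (median 13.6%) and 18.04% to 31.9% in infested ones (median 26.2%). Without infested replicate 1, which had the 18.04%, the infested range was 25.2% to 31.9%. The genes that fell took 52.6% to 61.7% in control (median 56.0%) and 33.5% to 50.4% in infested leaves (median 41.5%), or at most 42.2% without replicate 1. These calls came from the same libraries, so the shares describe them and test nothing.

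Shares were also taken over genes called from the fold changes of the other experiment. In the B96 experiment, genes that rose in the B75 experiment took 7.14% to 10.2% of the counts in control and 12.8% to 20.9% in infested libraries. In the B75 experiment, genes that rose in the B96 experiment took 5.74% to 7.86% and 16.0% to 21.1%. For falling genes the shares were 42.7% to 50.9% in control and 33.3% to 40.5% in infested libraries of the B96 experiment, and 17.9% to 19.5% and 12.3% to 14.03% in the B75 experiment. Control and infested libraries did not overlap in any of these 4 comparisons.

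**Figure D2:**
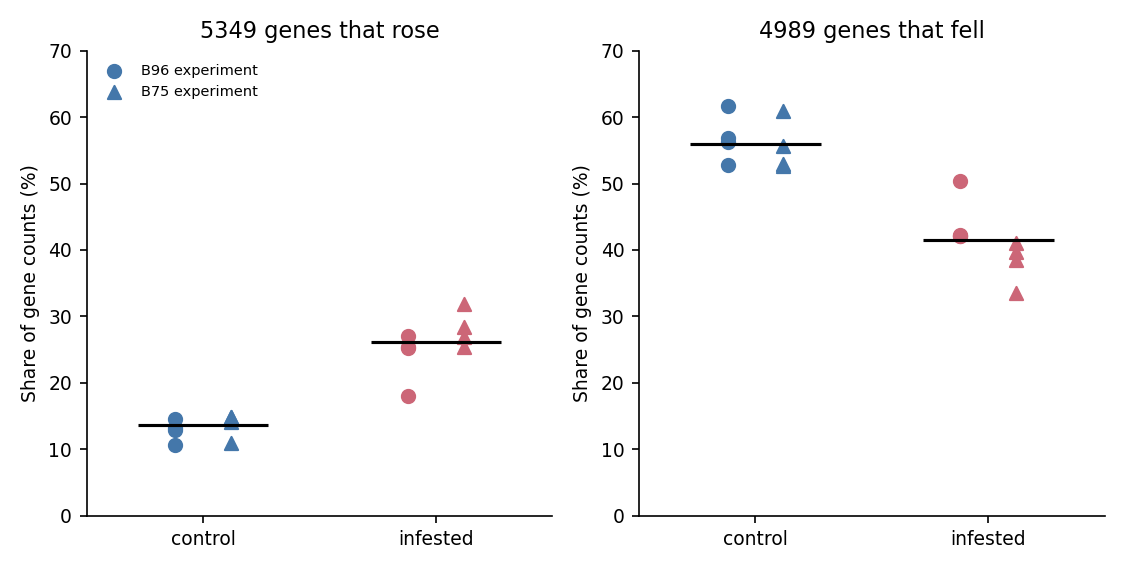
Share of all gene counts (%, vertical axis) taken by the genes that rose (left) and fell (right) in each of the 16 B73 libraries (circles B96, triangles B75 experiment), with the median of each group as a line. The rising genes go from a median of 13.6% to 26.2% and the falling genes from 56.0% to 41.5%, with infested replicate 1 nearest to the controls at 18.04% and 50.4%.

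Which way a gene moved followed its level. Genes were put in classes by their mean CPM over all 16 libraries, which are read levels, since CPM are not divided by transcript length. Of 80 genes over 1000 CPM, 59 fell (73.8%) and 8 rose, with a median log2 fold change of -0.65. Of 1711 genes at 100 to 1000 CPM, 858 fell and 317 rose (50.1% and 18.5%), with a median of -0.23. At 10 to 100 CPM, falls and rises were nearly equal, with 2967 and 2813 of 10653 genes. Of 7047 genes at 1 to 10 CPM, 2070 rose and 1050 fell (29.4% and 14.9%), and 857 rose at least 2-fold (12.16%). Below 1 CPM, 141 of 648 genes rose, 84 of them at least 2-fold (12.96%), and 55 fell. The experiments differed in these counts: over 1000 CPM, 24 of 80 genes fell with the B96 plants against 59 with the B75 plants, and at 100 to 1000 CPM 399 against 772. Over all tested genes, 10.7% fell in the B96 and 18.8% in the B75 experiment. Infested replicate 1 is among the B96 libraries, and the counts by class within experiments were not made without it. Median log2 fold changes over 1000 CPM were -0.48 and -0.77, and the difference between experiments by class was not tested.

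These directions are relative to the scaling. Scaled by library totals without TMM, the median of all tested genes shifted from -0.01 to 0.14 on the log2 scale, and rises made up 72.2% of the calls (6908 higher and 2657 lower) in place of 51.7%. The order of the classes was the same, with medians of 0.30, 0.24, 0.12, -0.08 and -0.49 from the lowest to the highest. The genes over 1000 CPM fell in either case (56 of 80 without TMM), as did more genes at 100 to 1000 CPM than rose (598 and 424), whereas the class at 10 to 100 CPM turned from nearly equal numbers to 3725 rises and 1354 falls. With size factors by DESeq2's rule the calls were 5205 rises and 5252 falls, with 59 falls among the 80 genes over 1000 CPM. In bulk leaf RNA, fewer cells of a type and less RNA per cell cannot be told apart.

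**Figure D3:**
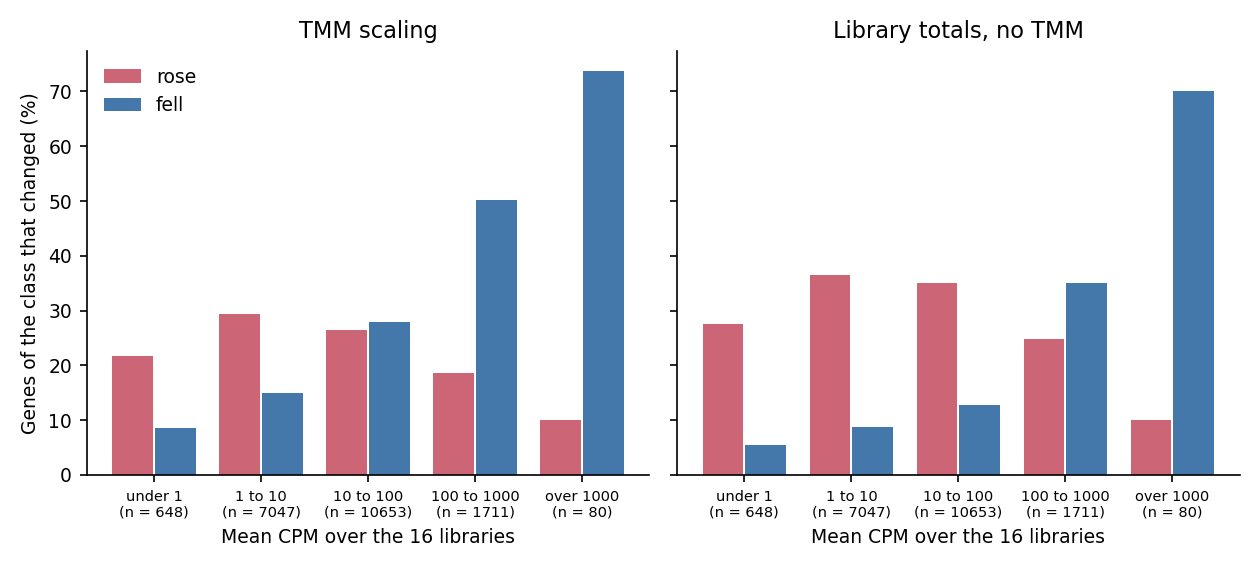
Percent of genes (vertical axis) that rose (red) or fell (blue) at an adjusted p under 0.05 in 5 classes of mean CPM over the 16 B73 libraries (horizontal axis, number of genes in brackets), with TMM scaling (left) and with library totals (right). In both, the share that fell is highest over 1000 CPM, with 59 and 56 of 80 genes. The class at 10 to 100 CPM changes from more falls to more rises between the panels.

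Genes that rose strongly came from low levels. The 1550 genes that rose at least 2-fold had a median of 2.22 CPM in control and 9.24 CPM in infested leaves, and the 268 that rose at least 8-fold went from a median of 0.634 to 14.4 CPM. The 4989 genes that fell had a median of 36.3 CPM in control, against 15.2 CPM for all genes tested. The 391 that fell at least 2-fold had a median of 13.5 CPM in control, near that middle, and 5.49 CPM in infested leaves, but their levels were spread widely. Their control quartiles were 3.76 and 88.9 CPM, against 4.57 and 40.4 CPM for all genes tested. By class of mean CPM, such falls were rarest at 10 to 100 CPM (113 of 10653 genes, 1.06%). They made up 2.47% of genes under 1 CPM, 2.55% at 1 to 10 CPM and 4.3% at 100 to 1000 CPM. Over 1000 CPM, 8 of 80 genes fell that far. A gene could enter the test through its infested level alone, so genes low in control were kept more readily where they rose.

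Some transcripts all but unread in control leaves were read in all infested libraries. Among all 46272 features, 16 had a mean under 0.1 CPM in control and at least 5 CPM in infested leaves, with a median of 10.99 and a highest value of 122.7 CPM. No feature met the same limits in the other direction. With no count in any control library, 21 features had counts in all 8 infested libraries, with a median total of 48 counts (13 to 298), and 0 features had the opposite pattern, although the control libraries were deeper. Set against 3 counts over the 8 control libraries, or 0.0220 CPM, the highest of the 21 was at least 135-fold higher with mites, for counting error only. Only 1 of the 21 passed the filter on low counts. At looser limits features were lost as well: 137 had no control count and counts in at least 4 infested libraries, and 57 the reverse. A count in infested leaves only was found for 1580 features and in control leaves only for 1656, or for 1936 and 1265 after thinning.

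With total gene counts made equal, more features had a count in infested leaves. Thinned to the smallest library, control libraries had a count for 23653 to 24549 features (median 24112) and infested libraries for 24563 to 25047 (median 24844). The groups did not overlap, by a gap of few features, and the mean difference of 748.5 features had an exact permutation p of 0.000408 within experiments (two-sided, n = 8 per group), the smallest the design can give, and 0.00102 after adjustment over 5 library measures. Without thinning the medians were 25193 and 25198 (exact permutation p = 0.486). The number of features also depends on how much of a library its leading genes take, which moved with the treatment, and that part was not tested. The 10 most counted genes took 8.76% to 10.4% of the counts in control and 5.71% to 9.04% in infested leaves (exact permutation p = 0.000408, adjusted 0.00102), with an overlap due to infested replicate 1, which had the 9.04%. The share of reads not assigned to a gene differed by less than its spread between libraries (exact permutation p = 0.524).

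With 4 against 4 libraries and the same 20139 genes, the B96 experiment gave 3458 rises and 2146 falls and the B75 experiment 4180 rises and 3796 falls. Pooling gave 846 rises and 1016 falls that neither experiment called alone. All but 1 of the 5349 pooled rises and 3 of the 4989 falls had the same sign in both experiments, which the choice of genes from these same 16 libraries largely fixes. Those rises had nearly the same median in the B96 and the B75 experiment (0.60 and 0.64), while the falls had medians of -0.38 and -0.51.

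Falls of at least 2-fold numbered 162 in the B96 and 815 in the B75 experiment. In the B96 experiment the number became 267 without infested replicate 1, 98 without infested replicate 2 and 100 without control replicate 4. In the B75 experiment it became 381 without control replicate 6 and 530 without infested replicate 7. The difference between both responses, tested directly for each gene, passed at 0 of 20139 genes by edgeR (0.0%), and DESeq2 called 4 genes. An unadjusted p under 0.05 by edgeR was found for 656 genes (3.26%), a smaller share than that limit gives by chance. Uninfested leaves of both experiments differed at 42 genes by edgeR, 23 of them at least 2-fold. Spread between libraries was alike with and without mites over both experiments, with a median SD of 0.19 on the log2(CPM + 1) scale in either group. Within experiments it differed in opposite directions, at 0.165 in control and 0.191 in infested leaves of the B96 experiment and 0.194 and 0.167 in the B75 experiment.

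**Figure D4:**
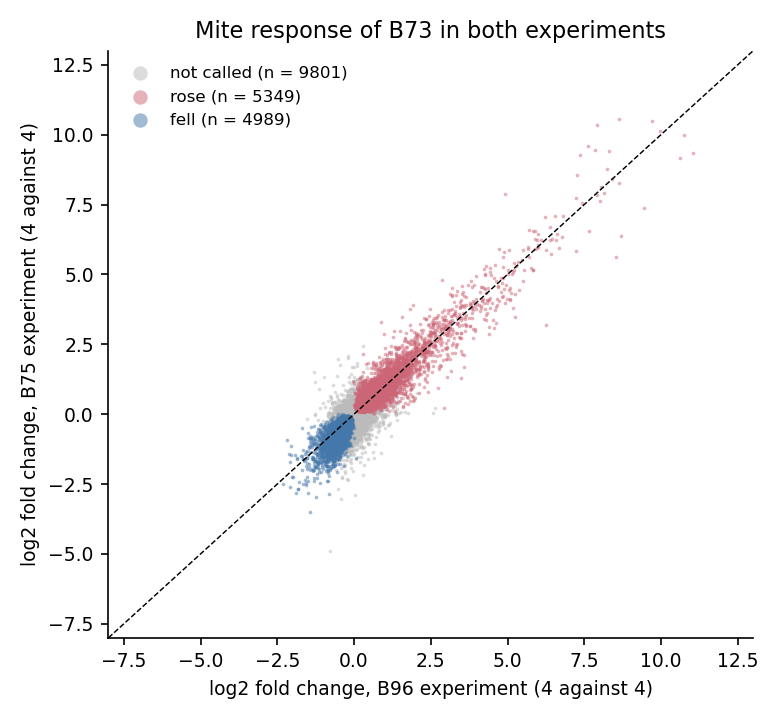
Log2 fold change of each of 20139 genes in the B96 experiment (horizontal axis) and the B75 experiment (vertical axis), 4 infested against 4 control libraries each, coloured by the call over all 16 libraries, with the line of equal change dashed. Rises extend much further from 0 than falls on both axes.

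Among genes that reached 5 CPM on average in their higher group and had no overlap between libraries, the largest changes were those of Zm00001d011056 and Zm00001d030670 for rises and Zm00001d013261 and Zm00001d051099 for falls. Zm00001d011056 had 0 to 0.269 CPM in the 8 control libraries (median 0.0672) and 51.1 to 163 CPM in the 8 infested ones (median 126). Its log2 fold change was 10.31 ± 0.36 (SE, adjusted p = 2.5e-11 by edgeR), with 10.76 in the B96 and 9.99 in the B75 experiment. Zm00001d030670 had 0 to 0.0733 CPM in control (median 0.0531) and 10.7 to 67.9 CPM in infested leaves (median 49.5), a log2 fold change of 10.08 ± 0.50 (adjusted p = 1.0e-09 by edgeR). Both went from at most a few reads in a control library to clear expression in every infested one, and infested replicate 1 had the lowest infested value of each.

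Zm00001d013261 had 159 to 321 CPM in control (median 202) and 23.7 to 77.5 CPM in infested leaves (median 40.6), a log2 fold change of -2.35 ± 0.23 (adjusted p = 6.2e-07 by edgeR). Zm00001d051099 had 6.89 to 19.2 CPM in control (median 9.40) and 1.21 to 4.85 CPM in infested leaves (median 2.01), a log2 fold change of -2.12 ± 0.29 (adjusted p = 2.2e-05 by edgeR). Every infested library lay below every control library for both. The fall of Zm00001d051099 was -1.49 ± 0.34 in the B96 and -2.81 ± 0.36 in the B75 experiment, a difference with an unadjusted p of 0.0171 that did not pass adjustment (0.995, edgeR).

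**Figure D5:**
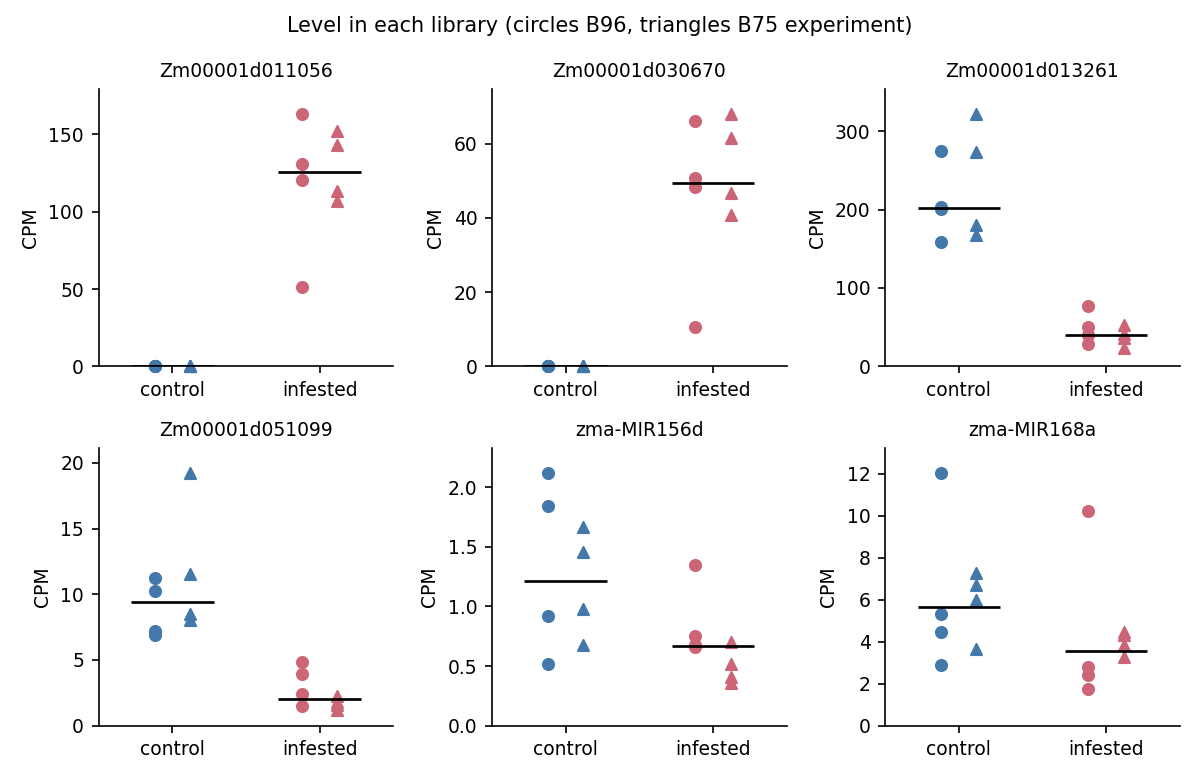
Level in CPM (vertical axes, linear and starting at 0) of the 2 identifiers with the largest rise, the 2 with the largest fall and the 2 tested microRNA precursors in each B73 library (circles B96, triangles B75 experiment), with group medians as lines. For the 4 Zm00001d identifiers infested and control libraries do not overlap, while for both precursors they do.

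The libraries were poly(A)-selected, which reads primary transcripts of microRNA genes and not the mature molecules. Of 154 precursors 30 had a count in B73 and 2 passed the filter. The MIR156 family gives miR156, which represses SPL transcription factors and keeps shoots in the juvenile phase. Counts of zma-MIR156d were 7 to 41 in control (median 22) and 5 to 15 in infested libraries (median 8.5), or 0.513 to 2.11 CPM (median 1.22) and 0.358 to 1.35 CPM (median 0.670). It fell by 0.94 ± 0.30 on the log2 scale (adjusted p = 0.0158 by edgeR), with groups that overlapped and 2 of 8 infested libraries below the lowest control. The call did not hold in the B96 experiment alone (adjusted p = 0.230) and held in the B75 experiment (0.0397), each by edgeR.

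The MIR168 family gives miR168, which in Arabidopsis targets the mRNA of ARGONAUTE1, the core protein of the microRNA effector complex. Counts of zma-MIR168a were 56 to 164 in control (median 95) and 24 to 114 in infested libraries (median 45.5), or 2.89 to 12.02 CPM (median 5.65) and 1.77 to 10.2 CPM (median 3.56). Its log2 fold change of -0.54 ± 0.34 did not pass (adjusted p = 0.191 by edgeR), with a 95% interval of -1.26 to 0.17. The highest infested value of 10.2 CPM belonged to replicate 4, without which the log2 fold change was -0.92 (adjusted p = 0.0140 by edgeR). The highest control value of 12.02 CPM also belonged to replicate 4. Without that control library the log2 fold change was -0.31 (adjusted p = 0.441 by edgeR). The calls of zma-MIR156d and zma-MIR168a both changed when the replicate number was fitted as a block, as given in the closing section. Of the untested precursors, zma-MIR156k had 101 counts over the control and 35 over the infested libraries, or 0.741 and 0.343 CPM over the pooled libraries. For zma-MIR156j the counts were 56 and 46, or 0.411 and 0.450 CPM, which is not a fall once depth is scaled.

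Features with other identifiers were few among the tested genes. Of 1798 with ENSRNA identifiers 63 were tested, 7 rose and 6 fell (11.1% and 9.52%, below the 26.6% and 24.8% of all genes), at a median level of 1.49 CPM. The largest rise was that of ENSRNA049478482, from 0.258 to 21.1 CPM in control (median 0.590) to 4.19 to 62.3 CPM in infested leaves (median 20.7), a log2 fold change of 2.60 ± 0.83 (adjusted p = 0.0150 by edgeR). Its groups overlapped, with 21.1 CPM in control replicate 7 and 7.22 CPM in control replicate 1 against 4.19 CPM in infested replicate 1. Without control replicate 7 the log2 fold change was 4.202 (adjusted p = 9.5e-05 by edgeR). Without infested replicate 2, which had the 62.3 CPM, it was 2.25 (adjusted p = 0.0323 by edgeR). In the B75 experiment alone it was 1.70 and did not pass (adjusted p = 0.234 by edgeR). The largest fall was that of ENSRNA049472638, from 0.733 to 2.27 CPM (median 1.68) to 0.246 to 1.62 CPM (median 0.576), a log2 fold change of -1.23 ± 0.33 (adjusted p = 0.00534 by edgeR), and 6 of 8 infested libraries lay below every control. It passed in the B75 experiment, at -1.89 (adjusted p = 0.00459 by edgeR), and not in the B96 experiment, at -0.68 (adjusted p = 0.231). Of 12 tested features with GRMZM5G identifiers 1 changed. GRMZM5G862955 had 1.02 to 2.87 CPM in control (median 1.56) and 0.510 to 1.70 CPM in infested leaves (median 0.875), a log2 fold change of -0.74 ± 0.26 (adjusted p = 0.0266 by edgeR). That call was lost, at an adjusted p of 0.0508 to 0.0567, without infested replicate 4, 5, 6 or 8.

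The B73 response was set against the mean of the responses of B96 and B75, inbreds known for resistance to mites, each next to the B73 libraries of its own experiment. It was higher at 1952 and lower at 2855 of 23476 genes (8.31% and 12.2%, edgeR, adjusted p under 0.05). These are signed differences of log2 fold change, so lower does not always mean weaker. Of the 1952 higher genes, 973 rose in B73, 307 fell and 672 were not called in B73. Of the 2855 lower genes, 761 rose in B73, 759 fell and 1335 were not called in B73. Both single differences also passed, in the same direction, at 163 and 480 genes. The number of 163 depended on B75 libraries, with 101, 288 and 91 without B75 control replicates 1, 3 and 4 and 95 without B75 infested replicate 1. Reads of all lines were aligned to the B73 reference, and the part of sequence differences between the lines in these results was not tested.

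Among genes that rose in B73 without overlap, Zm00001d008283 had the largest excess over the other inbreds, 5.44 ± 0.42 on the log2 scale (adjusted p = 4.5e-10 by edgeR). In B73 it went from 0 to 0.360 CPM (median 0.201) to 3.20 to 10.9 CPM (median 7.52). In B96 the control libraries already had 5.62, 6.58, 6.13 and 7.60 CPM, and the infested ones 5.80, 2.53, 3.83 and 6.39 CPM. In B75 the values were 1.59, 2.84, 2.03 and 1.66 CPM in control and 2.70, 0.995, 3.19 and 1.81 CPM in infested leaves. Control leaves of both other inbreds thus held more of it than control leaves of B73, in every library. Zm00001d052137 was next, with an excess of 3.94 ± 0.51, from 0.533 to 1.51 CPM in control B73 to 3.62 to 10.4 CPM in infested B73. Its control levels were 10.4 to 15.6 CPM in B96 and 0.395 to 9.25 CPM in B75, and its infested levels 3.00 to 9.90 CPM and 0.751 to 2.94 CPM.

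The largest shortfall was that of Zm00001d048660, -7.37 ± 0.80 (adjusted p = 1.9e-07 by edgeR), a fitted value that rests on few control counts in B96 and B75 and is no bound. It rose in B73 from 0.194 to 1.60 CPM (median 0.794) to 1.85 to 15.9 CPM (median 6.17). Infested B96 had 384, 340, 398 and 357 CPM, and infested B75 16.0, 10.01, 21.6 and 8.68 CPM, so infested B75 overlapped infested B73. Zm00001d039301 followed with -5.28 ± 0.65, from 0.384 to 6.82 CPM in control B73 to 53.5 to 142 CPM in infested B73, and with at most 0.712 CPM in controls of B96 and 0.531 CPM in controls of B75. Its infested levels were 166 to 235 CPM in B96 and 211 to 356 CPM in B75. The fitted value of Zm00001d039301 likewise rests on few control counts in B96 and B75 and is no bound. For both, control leaves had higher medians in B73 than in the other inbreds.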

How the data were processed

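The deposited table holds raw counts per gene feature, made by the authors with STAR 2.5.3a and HTSeq 0.9.1 on B73 RefGen_v4, per the submitters' processing notes. Counting options, strand included, were not found in the labels or notes, although the kit was stranded. The 5 summary lines, 12.7% to 28.0% of the reads of the B73 libraries and mostly reads with more than one alignment, stayed out of library sizes and tests, so genes with near-identical copies are uncertain. No pair of replicates looked like one library (lowest chi-square per gene 7.36).

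The 16 B73 libraries were fitted with edgeR 4.0.16 in R 4.3.3: filterByExpr with a minimum count of 10, TMM, experiment as covariate, quasi-likelihood test. CPM use TMM-scaled totals. SE is the log2 fold change over the square root of F. Within-experiment values came from a fit of 4 group means. The comparison with B96 and B75 was added after the data were seen and used all 32 inbred libraries. On simulated counts for the mite response (20021 genes), 90% of 2-fold and 99% of 4-fold changes were recovered, and 4.06% of calls were false. The simulation changed 100 genes by each size, as many up as down, all over 1 CPM and with no effect of experiment. Far more genes changed in the data, and with unequal sizes, so these rates need not hold there.

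Named identifiers are the 2 largest rises and 2 largest falls that pass, have at least 5 CPM in the higher group and no overlap, the tested precursors with the next 2 by counts, and the extremes of each other identifier class. For the comparison of inbreds the rule also asked that the gene rose in B73 and that both single differences passed, chosen after the data were seen. The 28 gene lists drawn up for the study, among them benzoxazinoid and jasmonate biosynthesis and markers of leaf cell types, matched 0 features. The members, lists and tests were chosen with earlier results of these data known. DESeq2 1.42.0 and the other alternatives are in the closing section.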

Additional observations from a re-analysis of the deposited data

Results flagged for a closer look

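In all, 7 library values lay far from the others of their group of 8 by Dixon's test, out of 34 groups examined, of which chance flags about 1 in 20. Control replicate 7 had 27.999% of its reads unassigned to a gene, 19.2 CPM of Zm00001d051099 and 21.1 CPM of ENSRNA049478482, each the highest of the control group. Infested replicate 1 had 10.7 CPM of Zm00001d030670, the lowest of the infested group. Infested replicate 2 had 62.3 CPM of ENSRNA049478482. Infested replicate 4 had 1.35 CPM of zma-MIR156d and 10.2 CPM of zma-MIR168a, each the highest of the infested group.

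Of the 1952 and 2855 genes whose response was higher or lower in B73 than the mean of B96 and B75 by a direct test, the named ones are Zm00001d008283 (5.44 on the log2 scale, B73 minus the mean of B96 and B75), Zm00001d052137 (3.94), Zm00001d048660 (-7.37) and Zm00001d039301 (-5.28).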

How the results depend on the processing

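The pooled count of 10338 genes stayed within 1.5 times under RLE size factors, DESeq2, both other filters, no experiment covariate, thinning, an adjusted p of 0.01 and the removal of any library (9598 to 10866). It was 5026 with replicates 1 to 4 alone (3090 higher, 1936 lower), and falls numbered 3318 with replicates 5 to 8 alone and 2657 with library totals. Counts of at least 2-fold changes were 2995 with DESeq2 (2364 higher, 631 lower), 3053 with no low-count filter (2447 and 606), and 847 with a test against 2-fold (823 and 24). Falls of that size numbered 189 with library totals, 171 with replicates 1 to 4, 774 with replicates 5 to 8 and 242 to 592 when leaving out each library. For the other counts of the B73 response, leaving out each library gave 5014 to 5662 rises, 4565 to 5263 falls, 1788 to 2283 changes and 1473 to 1727 rises of at least 2-fold, 4142 to 6058 genes in the B96 and 6088 to 8296 in the B75 experiment, and 0 for the difference between experiments, for which DESeq2 gave 4.

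With classes by the control mean, 600 of 1088 genes under 1 CPM rose and 19 fell, and 2 of 99 over 1000 CPM rose. With library totals, falls numbered 35, 614 and 1354 in the 3 classes up to 100 CPM. Shares of counts taken by genes called in the other experiment had medians of 7.79% and 18.9% for rises and 31.1% and 23.7% for falls, in control and infested leaves. Each of these medians pools different gene lists for the B96 and the B75 experiment, so the ranges within experiments in the report describe the libraries better. ENSRNA calls numbered 31 with DESeq2, 26 with no low-count filter, 6 and 8 with replicates 1 to 4 and 5 to 8, 7 at an adjusted p of 0.01 and 11 to 16 when leaving out each library. The single GRMZM5G call became 0 with library totals, no covariate, thinning or an adjusted p of 0.01. It was also 0 in separate fits of replicates 1 to 4 or 5 to 8, and 0 to 1 when leaving out each library. In the fit of 4 group means GRMZM5G862955 passed in the B75 experiment (adjusted p = 0.0188 by edgeR). It did not pass there in the B96 experiment (adjusted p = 0.442 by edgeR). Precursor calls numbered 4 with DESeq2 and with no low-count filter, 0 at a mean of at least 1 CPM, with thinning, with replicates 1 to 4 and at an adjusted p of 0.01, and 1 to 2 when leaving out each library. The difference of B73 from B96 and B75 ranged from 1618 to 2226 higher and 2500 to 3043 lower genes, and from 91 to 288 and 354 to 504 where both single differences passed.

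The labels state a randomized block design but not that a replicate number marks a block. Library numbers run in consecutive sets, each holding control and infested B73 of a single replicate number, so such blocks are possible. The data did not show pairing by number: deviations of same-numbered control and infested libraries correlated at -0.283 to 0.557, and 2 of 8 control libraries correlated best with their own number. With the replicate number as a block, 10335 genes changed (5312 higher, 5023 lower). Under it zma-MIR156d had an adjusted p of 0.0554 and zma-MIR168a one of 0.00338, by edgeR. Their SE went from 0.30 to 0.35 for zma-MIR156d and from 0.34 to 0.13 for zma-MIR168a. Zm00001d011056, Zm00001d030670, Zm00001d013261 and Zm00001d051099 kept their calls in all 26 alternatives, while single genes of the comparison with B96 and B75 were not run under alternatives. The cause of the other shifts was not tested. Depth limits genes under 1 CPM, of which 648 were tested. The gene lists gave no value under any alternative.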
